A study of Mus musculus with 24 samples.

Results

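The collapsin response mediator proteins (CRMPs) are encoded in the mouse by Crmp1, Dpysl2, Dpysl3, Dpysl4 and Dpysl5, and these 5 genes were taken by symbol from the 23881 genes of the mRNA table. All 5 passed the filter on low values, a mean of at least 0.5 RPKM (reads scaled to the exon length of the gene and to the mapped reads of the library) over the 12 libraries, which left 13927 genes. The family was chosen by its RPKM difference between the ages, so its age values are a description, and no p-value is given for them. Dpys, the enzyme of pyrimidine breakdown to which the CRMPs are related in sequence, was between 0 and 0.157 RPKM in every library and did not pass the filter.

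Messages were measured in total RNA of the visual cortex of C57BL6J mice of both sexes under normal rearing, sequenced in 4 libraries for each of 3 groups. P10-wt were wild type mice at postnatal day 10, P28-wt were wild type mice at postnatal day 28, and P28-KO were mice at postnatal day 28 that lacked the locus of miR-132 and miR-212 in all tissues through the germ line, with wild type littermates as the controls. The deletion was thus present from conception and in every cell type, and there was no null group at P10. Libraries are named by the number in their label, in the order 103R, 111R, 117R and 099R for P10-wt, 146R, 158R, 152R and 144R for P28-wt, and 030R, 088R, 129R and 079R for P28-KO, and all values below follow this order.

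CRMPs are cytosolic phosphoproteins of neurons, concentrated in growing axons and their growth cones. Dpysl2 encodes CRMP2, the founding member, which binds tubulin dimers, promotes microtubule assembly and axon growth, and is needed for the collapse of growth cones by the repulsive ligand Sema3a. Phosphorylation by kinases such as Cdk5 and Gsk3b lowers the affinity of CRMP2 for tubulin. Crmp1 encodes CRMP1, another mediator of Sema3a responses and of neuronal migration. Dpysl3 encodes CRMP4, which binds actin and microtubules, Dpysl4 encodes CRMP3, and Dpysl5 encodes CRMP5, the most divergent member, which opposes the neurite outgrowth promoted by CRMP2. The proteins form homo- and heterotetramers, so the relative amounts of the members are part of the description of the family.

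The sequences that bear on the 2 contrasts are those of the deleted microRNAs and of the start regions of 2 members. Mature microRNAs of the deleted locus, from RefSeq on GRCm38.p6 (the same build as mm10), are shown first because a microRNA pairs with its target mainly through bases 2 to 8, the seed, which is in capitals:
mmu-miR-132-3p: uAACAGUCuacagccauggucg
mmu-miR-212-3p: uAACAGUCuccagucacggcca
mmu-miR-132-5p: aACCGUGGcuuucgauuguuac
mmu-miR-212-5p: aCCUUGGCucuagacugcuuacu
They lie on the plus strand of chromosome 11 between positions 75173403 and 75173744. The 2 forms from the 3′ arms share the seed AACAGUC, whose matching site in a messenger RNA reads GACTGTT, and the 2 forms from the 5′ arms have seeds of their own, with the sites CCACGGT and GCCAAGG.

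The RefSeq start regions of Dpysl5 and Crmp1, the members for which the promoter table has an entry, follow, each from 250 bases before to 50 after a RefSeq start. The RefSeq start of Dpysl5, 30711564, lies 331 bases before the start that the deposited table gives for the gene, and for the Crmp1 entry shown both starts are the same (37242058). They are on the plus strand of chromosome 5 of GRCm38.p6, and capitals mark the GC box GGGCGG, which reads CCGCCC when it lies on the other strand:
Dpysl5, chr5:30711314-30711613: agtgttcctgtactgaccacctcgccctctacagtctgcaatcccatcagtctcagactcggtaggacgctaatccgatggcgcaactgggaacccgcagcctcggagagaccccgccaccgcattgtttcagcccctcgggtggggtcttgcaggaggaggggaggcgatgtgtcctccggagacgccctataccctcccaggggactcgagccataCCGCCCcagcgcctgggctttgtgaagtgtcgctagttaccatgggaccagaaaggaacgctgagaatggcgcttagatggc
Crmp1, chr5:37241808-37242107: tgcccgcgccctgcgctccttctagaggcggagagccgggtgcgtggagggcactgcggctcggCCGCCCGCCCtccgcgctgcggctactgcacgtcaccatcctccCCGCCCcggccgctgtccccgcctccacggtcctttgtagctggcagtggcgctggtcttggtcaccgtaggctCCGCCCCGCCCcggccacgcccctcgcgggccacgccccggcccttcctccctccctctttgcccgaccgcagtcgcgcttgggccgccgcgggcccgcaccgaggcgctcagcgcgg
Both regions were rich in G and C, at 61.0% for Dpysl5 and 77.0% for Crmp1 against a median of 52.7% over 32851 promoters of the table. The Dpysl5 region held 1 GC box and the Crmp1 region 5, counting overlapping copies, and 35.7% of all promoters held at least 1. Neither held the TATA box letters TATAAA (13.6% of promoters), CCAAT (37.4%) or the cAMP response element TGACGTCA (1.79%) on either strand. The E-box CANNTG (72.3%) was present once in the Dpysl5 region and was not found in the Crmp1 region. The other Crmp1 entry of the table, chr5:37245514-37245813, was at 61.0% with 2 GC boxes. These matches are a description of the letters only.

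As a check of the labels, the 2 transcripts of the deleted locus, Mir132 and Mir212, were listed at 0 in all 4 P28-KO libraries, against 12.1 ± 2.05 and 18.8 ± 4.46 RPKM in P28-wt (SD, n = 4). Depth could not be recovered from RPKM. The RPKM of a library summed to between 256643 and 293066, and between 17092 and 19006 genes were above 0. One P10-wt library, 103R, stood apart from the rest: on the first principal component, which held 70.9% of the variance, it was at -79.03 and the other 3 P10-wt libraries between -56.9 and -55.3. Its summed RPKM of young neuron genes was higher (4476 against 3319 to 3480) and that of myelin genes lower (39.7 against 79.6 to 132) than in the other P10-wt libraries. Thalamic markers (12.8 against 6.52 to 7.83) and striatal markers (11.7 against 9.045 to 9.94) also summed higher in 103R. Markers of excitatory neurons (645 against 849 to 885), astrocytes (273 against 367 to 413) and microglia (37.3 against 57.8 to 66.0) summed lower. Values of the CRMP genes that rest on P10-wt are therefore given with and without it. The tissue label was checked against marker genes: cortical excitatory neuron genes such as Slc17a7 and Tbr1 were present in every library, with list sums of 645 to 2072 RPKM. The sums of striatal and thalamic markers stayed between 4.92 and 12.8 RPKM, the highest being the thalamic sum of 103R.

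At P10 the CRMP genes were among the most abundant messages of the visual cortex. Crmp1 ranked 39th, Dpysl3 57th and Dpysl5 141st of 23881 genes by mean RPKM, while Dpysl2 ranked 927th and Dpysl4 1153rd. Without 103R their ranks were 49, 81, 180, 973 and 1214 in the same order. The order of levels, Crmp1 above Dpysl3, Dpysl5, Dpysl2 and Dpysl4, was the same in 4 of 4 P10-wt libraries. At P28 in wt mice Crmp1 still ranked 709th, but Dpysl3 and Dpysl5 ranked 6727th and 6842nd.

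Dpysl3 had the most negative age difference of the 13927 genes tested, also without 103R. Its level was 462, 250.2, 237 and 275 RPKM in the P10-wt libraries and 7.58, 7.28, 7.91 and 9.50 RPKM in the P28-wt libraries. Every P28 library was thus far below every P10 library, and the high P10 value was that of 103R. The means were 306 ± 105 and 8.07 ± 0.988 RPKM (SD, n = 4), a level 38.0-fold lower at P28, or 31.5-fold lower without 103R. On the log2(RPKM + 0.1) scale used for all differences here, the difference between the ages was -5.18 with an SE of 0.19, or -4.97 without 103R. The gene lies on chromosome 18, between positions 43320979 and 43438286 of mm10.

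Dpysl5 followed closely, with the 7th most negative age difference (6th without 103R). It was at 249, 161, 157 and 177 RPKM at P10 and at 6.82, 7.57, 8.56 and 8.35 RPKM at P28 in wt mice. The groups did not overlap, and 103R was again the highest. The mean level was 186 ± 43.0 RPKM at P10 and 7.82 ± 0.792 RPKM at P28, 23.8-fold lower, or 21.1-fold lower without 103R, with a log2 difference of -4.53 (SE 0.14, or -4.38 without 103R). In the deposited table Dpysl5 spans positions 30711895 to 30799369 of chromosome 5, the same chromosome as Crmp1 (37242058 to 37292163).

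Crmp1 was the most abundant member at both ages. Its P10-wt libraries held 517, 335, 341 and 349 RPKM and its P28-wt libraries 72.3, 67.8, 75.7 and 70.2 RPKM. The 4 P28-wt values lay close together and all below the P10 range. The mean went from 386 ± 88.0 to 71.5 ± 3.37 RPKM, a level 5.39-fold lower at P28, or 4.78-fold lower without 103R, and the log2 difference of -2.41 (SE 0.14) was the 87th most negative, or -2.26 and the 94th without 103R.

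Dpysl2 and Dpysl4 differed far less between the ages. Dpysl4 held 52.8, 45.0, 48.0 and 47.6 RPKM at P10 and 23.996, 27.8, 30.1 and 25.2 RPKM at P28 in wt mice, a level 1.81-fold lower (1.75-fold without 103R) with no overlap and a log2 difference of -0.85 (SE 0.09, or -0.81 without 103R). Dpysl2 held 61.2, 53.3, 51.9 and 60.3 RPKM at P10 and 29.0, 53.1, 37.2 and 33.2 RPKM at P28. Here the ranges overlapped, because library 158R lay within the P10 range at 1.60 times the mean of the other 3 P28-wt libraries. Dpysl2 was 1.49-fold lower at P28 (1.45-fold without 103R), with a log2 difference of -0.61 (SE 0.16, or -0.57 without 103R). Library 158R also had the highest sum of myelin genes, 2613 RPKM against 1839 to 2037 RPKM in the other P28-wt libraries, but in P28-KO the library highest in Dpysl2, 030R, had the lowest myelin sum (1387 RPKM). Whether myelinating cells contribute to the Dpysl2 level was not tested. Dpysl4 lies on chromosome 7 (139086001 to 139101791) and Dpysl2 on chromosome 14 (66802864 to 66868600).

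**Figure D1:**
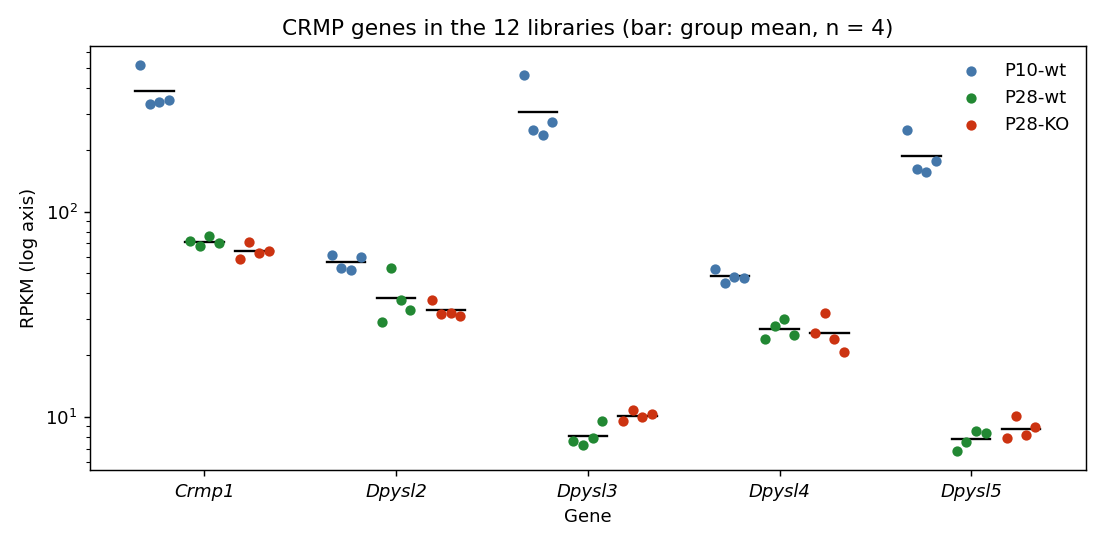
RPKM of the 5 CRMP genes in each of the 12 libraries, on a log axis, with 1 point per library and a bar at the group mean (n = 4). Dpysl3 and Dpysl5 sit between 157 and 462 RPKM at P10 and between 6.82 and 10.7 RPKM in both P28 groups, while the P28-wt points of Dpysl2 reach into the P10 range.

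For the description only, all 5 members were past the age threshold in the lower direction, an adjusted p under 0.05 from limma's moderated test, and 31.2% of all tested genes did so. None of the 5 was higher, a direction called for 26.7% of tested genes. Non-overlapping ranges, lower at P28, were seen for 4 of 5 members and for 29.7% of tested genes. Since the members were proposed for these values, nothing is read from the counts. The median log2 difference of the members was -2.41, against -0.05 over all tested genes, whose 5th to 95th percentiles ran from -1.25 to 1.26. In bulk cortex, fewer cells of a type and less RNA per cell cannot be told apart.

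Because the size of the age difference varied among the members, the makeup of the CRMP messages differed between the ages. RPKM is per exon length, so levels of the 5 genes can be summed within a library. The sum was 983 ± 242 RPKM at P10 and 152 ± 11.2 RPKM at P28 in wt mice, 6.45-fold lower, or 5.67-fold lower without 103R. At P10 Crmp1 made up 39.4% of the sum, Dpysl3 30.7%, Dpysl5 18.96%, Dpysl2 5.93% and Dpysl4 5.06%. Without 103R the P10 shares were 39.6%, 29.4%, 19.1%, 6.39% and 5.44%. At P28 Crmp1 held 47.2% and was followed by Dpysl2 with 24.8% and Dpysl4 with 17.6%, while Dpysl3 and Dpysl5 held 5.33% and 5.14%. Thus the genes of CRMP2 and CRMP3, the lowest members at P10, ranked above those of CRMP4 and CRMP5 in 4 of 4 P28-wt libraries. The order of Dpysl3 and Dpysl5 at P28 was not settled in wt mice: each was above the other in 2 of 4 libraries. Ratios of Dpysl3 to Dpysl5 were 0.924 to 1.14 in P28-wt, against 1.51 to 1.86 in P10-wt, or 1.51 to 1.56 without 103R.

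**Figure D2:**
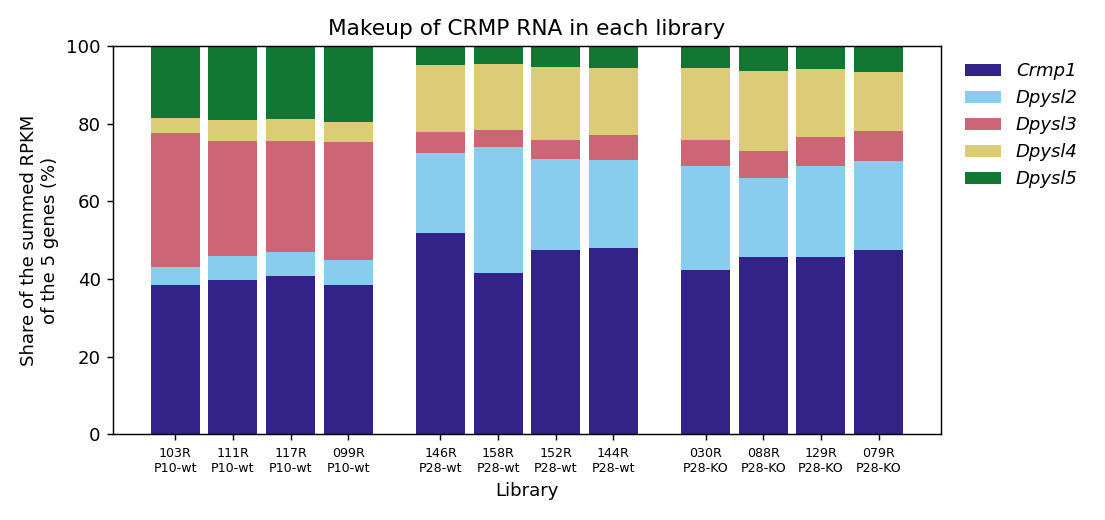
Share of each CRMP gene in the summed RPKM of the 5 genes, in percent, with 1 stacked bar per library and the libraries ordered by group. In P10-wt the Dpysl3 and Dpysl5 segments together are large (means of 30.7% and 18.96%), and in both P28 groups the Dpysl2 and Dpysl4 segments take more of the bar (24.8% and 17.6% in P28-wt).

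P28-KO libraries were compared with P28-wt to ask whether loss of the miR-132 and miR-212 locus moved the CRMP genes at P28. No member passed the threshold (adjusted p under 0.05, limma's moderated test over 13927 genes), and 2 genes did in all, Mir132 and Mir212, or 0.0144% of those tested. At an unadjusted p under 0.05 the count was 594 higher and 1130 lower genes, and 1 of the 5 members, Dpysl3, was among them. A regularized test modelled on the one the study names, with its p adjusted in the same way, called 5 genes and none of the members. The study itself called far more genes, at a threshold on a posterior probability. Its count and those given here rest on unlike thresholds.

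Dpysl3 was the only member whose P28-KO and P28-wt ranges did not overlap. The P28-KO libraries held 9.55, 10.7, 9.97 and 10.3 RPKM, and the P28-wt libraries given above reached 9.50 RPKM at most, in 144R. The lowest null library was only just above that value. The mean was 10.1 ± 0.507 RPKM in P28-KO, 1.26 times the P28-wt mean, with a log2 difference of 0.33 (SE 0.10, 95% interval 0.12 to 0.54) and an adjusted p of 0.382. The exact two-sided permutation test over the 4 and 4 libraries gave p = 0.0286, which is the smallest it can give and is not adjusted for the 13927 genes. Ranges that did not overlap, higher in P28-KO, were seen for 1.87% of tested genes, and lower for 3.62%, a direction shown by none of the 5 members. Dpysl3 is on a list of candidate targets that the study drew up on these libraries, so this value is not independent evidence of its direction.

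The site GACTGTT, the match to the seed shared by mmu-miR-132-3p and mmu-miR-212-3p, was found once in the RefSeq 3′ UTR of Dpysl3, at position 3300 of 3353 bases. It was not found in the 3′ UTRs of Crmp1 (955 bases), Dpysl2 (2481), Dpysl4 (802) or Dpysl5 (3047). Of 12532 tested genes with a 3′ UTR in the annotation, 12.2% held this site. The longest RefSeq 3′ UTR of each gene was searched, and this share is not matched for length. The 3′ UTR of Dpysl3 was the longest of the 5, and a longer one has more places for a match. The sites CCACGGT (3.20% of genes) and GCCAAGG (12.2%) were found in none of the 5. A match is a description of the letters and not evidence of pairing.

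The other members were within or close to the P28-wt range. Crmp1 was at 58.7, 71.4, 62.6 and 64.2 RPKM in P28-KO, a mean of 64.2 ± 5.34 against 71.5 ± 3.37 RPKM, and its log2 difference of -0.16 (SE 0.08, 95% interval -0.33 to 0.02) had an adjusted p of 0.423 and an exact permutation p of 0.0857. In 3 of 4 null libraries it was below the lowest P28-wt value. Dpysl5 was at 7.89, 10.1, 8.13 and 8.93 RPKM, a mean of 8.75 ± 0.984 RPKM, with a log2 difference of 0.16 (SE 0.11, interval -0.07 to 0.39, adjusted p 0.517, exact permutation p 0.229). Here 2 of 4 null libraries lay above the P28-wt range.

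Dpysl4 was at 25.6, 32.2, 24.1 and 20.7 RPKM in P28-KO, around the P28-wt mean of 26.8 ± 2.74 RPKM, with a log2 difference of -0.07 (SE 0.13, interval -0.36 to 0.21, adjusted p 0.819, exact permutation p 0.657). Its sign depended on library 079R, without which the difference was 0.02. Dpysl2 was at 37.0, 31.7, 32.0 and 31.2 RPKM, a mean of 33.0 ± 2.72 against 38.1 ± 10.5 RPKM, with a log2 difference of -0.17 (SE 0.16, interval -0.52 to 0.18, adjusted p 0.629, exact permutation p 0.514). Library 158R set most of that difference, which was -0.002 when it was left out. The intervals of these 4 genes all include 0.

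**Figure D3:**
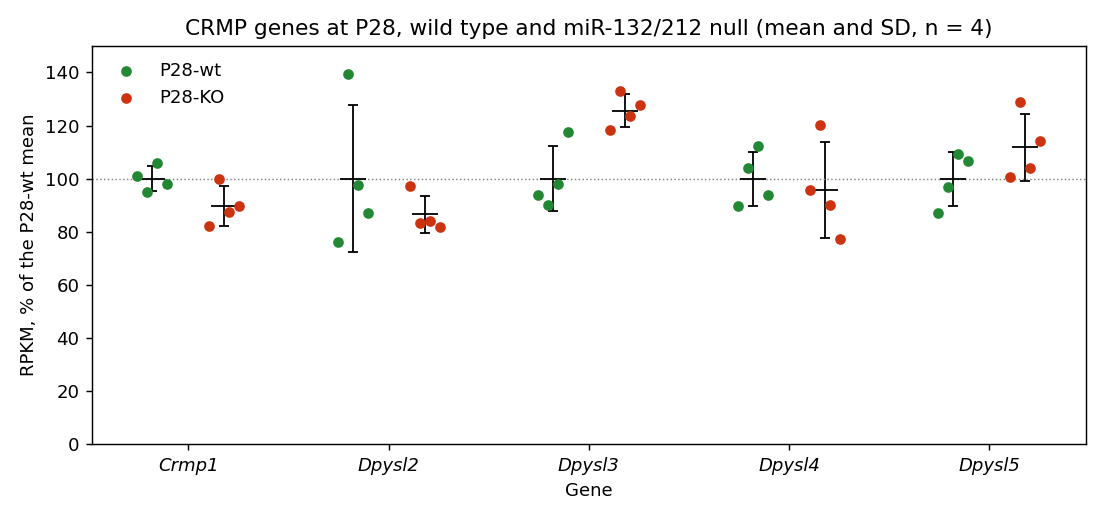
RPKM of each CRMP gene in the P28-wt and P28-KO libraries as a percentage of the P28-wt mean of that gene, with 1 point per library and the mean and SD of each group (n = 4). The 4 P28-KO points of Dpysl3 lie between 118.3% and 133%, above the highest P28-wt point of 117.8%, and the groups overlap for the other 4 genes.

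The sum of the 5 genes was 142 ± 9.73 RPKM in P28-KO against 152 ± 11.2 RPKM in P28-wt. Dpysl3 took 7.16% of the sum in P28-KO (6.88% to 7.61%) and 5.33% in P28-wt (4.45% to 6.49%), the ranges not overlapping, while Crmp1 took 45.3%, Dpysl2 23.4%, Dpysl4 18% and Dpysl5 6.17%. Dpysl3 was above Dpysl5 in 4 of 4 P28-KO libraries, with ratios of 1.07 to 1.23 that overlapped the P28-wt ratios. Among the markers of other cell types, the sum of the myelin genes was 1387 to 1772 RPKM in P28-KO and 1839 to 2613 RPKM in P28-wt, none of the 8 was called at an adjusted p under 0.05 (limma) or by the regularized test, and 6 of 8 had an unadjusted p under 0.05. The sum of the excitatory neuron markers was also lower in P28-KO (1706 to 1755 RPKM) than in P28-wt (1823 to 2072 RPKM), and that of the striatal markers was higher (6.55 to 7.57 against 4.92 to 6.21 RPKM), with no gene of either list called. At an unadjusted p under 0.05 there were 1 of 6 and 2 of 4 such genes, the regularized test called none, and the sums of the other 8 marker lists overlapped. The part of cell composition in the CRMP values was not tested. The summed level of the 15 young neuron genes was 913 to 977 RPKM in P28-KO and 938 to 1160 RPKM in P28-wt.

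Null mice at P28 were also set beside wt mice at P10. This comparison shares its libraries with the other 2 and is given only for its values. The log2 differences of P28-KO against P10-wt were -4.85 (SE 0.18) for Dpysl3, -4.37 (SE 0.14) for Dpysl5, -2.56 (SE 0.14) for Crmp1, -0.93 (SE 0.12) for Dpysl4 and -0.78 (SE 0.08) for Dpysl2. Every P28-KO library was below every P10-wt library for all 5 genes. How many of all tested genes did so was not counted. In this comparison 4677 of 13927 genes were called lower (limma, adjusted p under 0.05), and nothing is read from the 5. The summed level was 6.93-fold lower than at P10, or 6.09-fold lower without 103R. Without that library the differences, in the order above, were -4.63, -4.22, -2.41, -0.88 and -0.74. In the null mice, too, Dpysl3 and Dpysl5 were thus the members farthest below the P10-wt level.

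Semaphorin ligands and receptors stand upstream of the CRMPs. Of 10 such genes tested, 8 were lower at P28 in wt mice and none was higher (limma, adjusted p under 0.05), with a median log2 difference of -1.19. L1cam, an adhesion molecule that associates with the Sema3a receptor, fell by 1.77 on the log2 scale (SE 0.11, adjusted p 1.15e-06). The receptor plexins Plxna1 and Plxna3 fell by 1.69 (SE 0.13, adjusted p 3.00e-06) and 1.64 (SE 0.16, adjusted p 1.43e-05), and the co-receptor Nrp2 fell by 1.29 (SE 0.32, adjusted p 0.00543). The 2 genes not called were the ligands Sema3a, with 5.07 RPKM at P10 and 5.14 RPKM at P28, and Sema3f, with 5.17 and 3.96 RPKM. Thus the receptors, and the ligand Sema3c, were lower at P28, while the founding ligand of the pathway had a log2 difference of 0.03 (SE 0.13).

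Kinases and other enzymes that act on CRMP proteins went both ways. Of 14 tested, 5 rose, Camk2a and Rock2 among them, and 4 fell (Dyrk2, Gsk3b, Fyn and Capn2), with a median log2 difference of -0.02. Without 103R, 3 rose and 5 fell. Camk2a, a calcium-dependent kinase of excitatory synapses, rose by 1.92 (SE 0.19, adjusted p 1.76e-05). Dyrk2, a kinase that can prime CRMPs for Gsk3b, fell by 1.29 (SE 0.17, adjusted p 0.000119), Gsk3b, which phosphorylates the primed CRMP2, fell by 1.04 (SE 0.09, adjusted p 5.89e-06), and the tyrosine kinase Fyn fell by 0.66 (SE 0.08, adjusted p 7.41e-05).

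Binding partners also split, with 6 of 12 lower, 3 higher (Chn1, Numb and Kif5b) and a median of -0.33. The tubulin genes were the lowest: Tubb2b fell by 3.79 (SE 0.21, adjusted p 5.57e-07), Tuba1a fell by 2.15 (SE 0.14, adjusted p 1.50e-06) and Tubb3 fell by 1.83 (SE 0.14, adjusted p 3.97e-06). Tubulin genes have near-identical copies and reads that mapped to several places were removed upstream, so their levels are uncertain. Chn1, which encodes alpha-chimaerin, a Rac GTPase-activating protein of Sema3a signalling, rose by 1.59 (SE 0.16, adjusted p 2.00e-05).

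All 15 growth cone and young neuron genes were lower at P28, with a median of -2.09. Cd24a, a surface glycoprotein of young neurons, fell by 5.11 (SE 0.21, adjusted p 9.81e-08), the axon repellent Draxin fell by 3.88 (SE 0.57, adjusted p 0.000244), the microtubule-associated Dcx fell by 3.55 (SE 0.24, adjusted p 1.70e-06) and Nrep fell by 3.12 (SE 0.16, adjusted p 4.24e-07). Draxin was low, at 4.39 ± 5.13 RPKM at P10 (SD, n = 4) and 0.113 RPKM at P28 in wt mice. The P28 level is near the added 0.1, so the size of its difference is uncertain. Without 103R the genes given with an adjusted p in the 4 lists kept their direction and an adjusted p under 0.05. The difference of Draxin, the most altered of them, was then -3.21 (SE 0.31). Counts of the semaphorin, binding partner and young neuron lists were the same without 103R. The age counts of the 4 lists stand beside 31.2% of tested genes lower and 26.7% higher. Since the lists were chosen with earlier results of these data known, their age counts and p-values are a description only. In the mutant comparison none of these 51 genes was called by limma or by the regularized test, and 9 had an unadjusted p under 0.05 (limma). Of all 13927 tested genes, 594 higher and 1130 lower ones did so. The ranges of the 2 groups did not overlap for Nrp1, the Sema3a co-receptor, with 5.36 ± 0.390 RPKM in P28-KO and 4.39 ± 0.373 RPKM in P28-wt, and for Sox11, a transcription factor of young neurons, with 2.30 ± 0.125 RPKM in P28-KO and 1.89 ± 0.184 RPKM in P28-wt. Both genes are named because of these values. Ranges that did not overlap, higher in P28-KO, were seen for 1.87% of tested genes. The study names Sox11 among the miR-132-3p targets that were higher in these null libraries, so its value is not independent evidence.

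**Figure D4:**
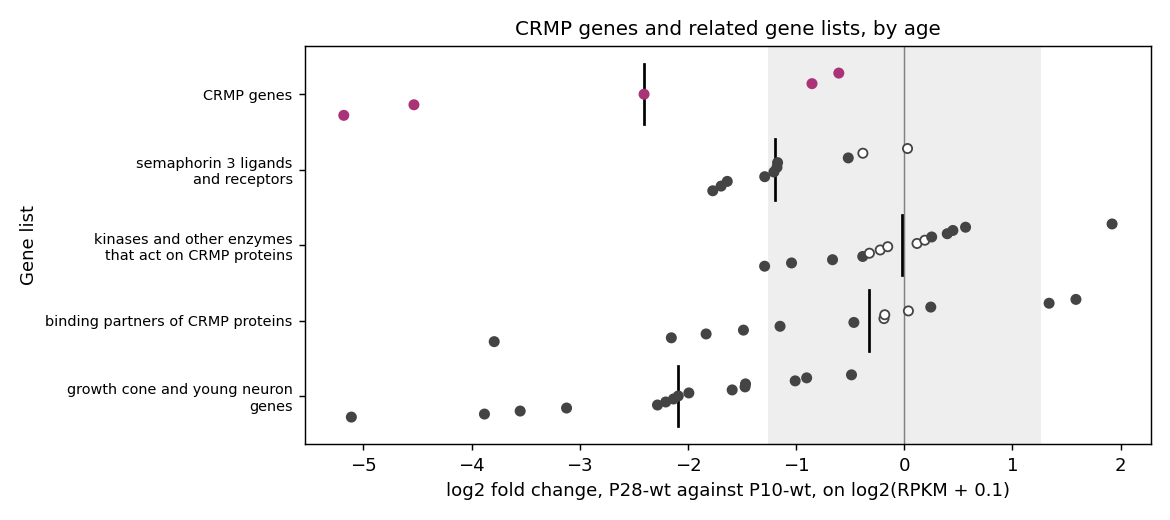
Log2 difference between P28-wt and P10-wt, on log2(RPKM + 0.1), for the 5 CRMP genes and the 4 lists of related genes, with 1 point per gene, a vertical bar at the list median and shading from the 5th to the 95th percentile of all tested genes. Filled points passed the threshold and open points did not. The list medians are -2.41, -1.19, -0.02, -0.33 and -2.09 from top to bottom.

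Marker genes of other cell types moved with age as well. All 8 myelin genes and all 6 microglia genes were called higher at P28, 5 of 6 interneuron genes were higher, and 3 of 3 tested genes of dividing cells and new neurons were lower. Of the astrocyte genes 2 of 6 were higher and 1 lower, of the excitatory neuron genes 4 of 6 were higher and 2 lower, and 3 of 4 genes of oligodendrocyte precursors and 2 of 4 of endothelium were lower. Striatal markers, all under 5 RPKM on average, were lower for 4 of 4 genes, or 3 of 4 without 103R, and thalamic markers for 1 of 3. These marker counts stand beside 31.2% of all tested genes called lower at P28 and 26.7% called higher. No change is read from counts near these shares. The blood gene Hba-a1 was listed at 0 in all 12 libraries. The myelin sum was 39.7 to 132 RPKM at P10 and 1839 to 2613 RPKM at P28 in wt mice, and the summed excitatory neuron markers were 645 to 885 and 1823 to 2072 RPKM. No other marker gene of the 11 lists was at 0 in any library. The part of these shifts in the CRMP age values was not tested.

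The genes with the most similar profiles over the 12 libraries were found by the root mean square (RMS) difference of log2 values, each gene centred on its own mean, so that 0 is an identical profile. Dpysl3 was nearest to Trim67 (0.259), Cd24a (0.271) and the polysialic acid synthase St8sia2 (0.453). Dpysl5 was nearest to Tubb2b (0.349), 1110015O18Rik (0.357) and Trim67 (0.379). For Crmp1 they were 2310003H01Rik (0.133), Tuba1a (0.136) and Tbc1d16 (0.139). Much closer neighbours were found for the members with small age differences, Bloc1s2 (0.0939), Lyrm2 (0.0952) and Ptges3 (0.102) for Dpysl2, and Podxl2 (0.0947), Ctnnbip1 (0.0960) and Rpsa (0.0972) for Dpysl4. Within the family, Dpysl2 and Dpysl4 differed from each other by 0.235 and Dpysl3 and Dpysl5 by 0.296, and the other 8 pairs differed by 0.771 to 2.07. These distances describe how alike the profiles are and carry no test, since the libraries share 2 ages and 103R was high for most members.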

How the data were processed

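The authors extracted total RNA, made paired-end TruSeq libraries and aligned the reads to mm10 and RefSeq transcripts with ELAND v2e, discarding reads that mapped to several places. The submitters' processing notes also name CASAVA 1.8.2, SAMtools 0.1.19 and Bowtie 0.12.8. The deposited values are RPKM, computed by the authors for 23881 genes with 1 column per library. Whole read counts were not recovered, so no count test was run. Of 21772 ratios of low values, 10.2% lay within 0.05 of a whole number, against 10% by chance. This check cannot decide, because the ratios were taken between libraries, each scaled to its own mapped reads. The study reports the reads of each replicate, which were not used here. Each column header carries 2 further numbers, and each column was taken as 1 library. The study gives 4 mice for each group, the labels do not name the mice, and p-values measure the spread between these samples.

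Differences were estimated on log2(RPKM + 0.1), which understates the change of low genes, with limma 3.58.1 in R 4.3.3 (moderated test with a trend), using only the 2 groups compared, as in the study. Genes needed a mean of 0.5 RPKM over 12 libraries. P-values were adjusted by Benjamini-Hochberg over 13927 genes and called under 0.05. The scripts were tested on simulated data. The members and gene lists were chosen with earlier results of these data known. Of each list, up to 4 genes with a mean of at least 1 RPKM and the largest age difference are named with their statistics, and of each member the 3 nearest profiles. Other named genes were chosen after their values were seen. Alternatives covered the pseudocount, filter, scaling, test, samples in the fit, replicate block and each library left out. Seed sites and promoter motifs were searched in RefSeq sequences. The 12 small RNA samples were not analysed here.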

Additional observations from a re-analysis of the deposited data

Results flagged for a closer look

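Within groups of 4, the gap between the extreme library and its neighbour exceeded the critical share of the range in Dixon's test in 6 of 33 groups of values tested, and chance gives about 1 in 20. The 33 groups are not independent, because the sums and shares are made from the same gene values. An excess over chance therefore cannot be read from this count. In P10-wt, library 103R was high for Crmp1 (517.3 RPKM), Dpysl3 (462.1 RPKM) and the sum of the 5 genes (1342 RPKM). In P28-KO, Dpysl2 was high in 030R (37.02 RPKM) and the sum of the 5 genes in 088R (156.2 RPKM). In P28-wt, the Dpysl4 share of the sum was high in 152R (18.88%).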

How the results depend on the processing

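Of the alternatives run, none changed the direction of a member in the 85 age values and 75 values of P28-KO against P10-wt, and the 75 alternative shares moved by less than the spread between replicates. In the mutant comparison 88 of 90 values kept direction and side of the threshold. The exact permutation test of Dpysl3 (0.33, p = 0.0286) passes only because that p is not adjusted over genes. Over the alternatives with an adjusted p, Dpysl3 ranged from 0.29 to 0.41, with adjusted p from 0.170 to 0.731. Dpysl4 turned to 0.022 without P28-KO replicate 4 (079R), within a leave-one-out range of -0.19 to 0.022. Leaving out 1 library moved Dpysl2 between -0.29 and -0.002. Genes called in the age comparison numbered 8063 and ranged from 6792 to 8319. In the mutant comparison 2 genes were called, and 5 (2 higher, 3 lower) by the regularized test. With the replicate number as a block, 7869 genes were called for age and 2 for the mutant. Same-numbered libraries correlated between -0.09 and 0.28. A pairing by these numbers was thus not shown, and this check cannot exclude one. Without 103R, 3 enzyme genes were higher with age in place of 5, a setting chosen after seeing the data. RPKM without counts limits how far low levels can be judged.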
